A study of Homo sapiens with 15 samples.

Results

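The genes described are those of the collagens, the laminins and the basement membrane. They were chosen by symbol alone, as every collagen chain (COL, a type, A and a chain number) and laminin chain (LAMA, LAMB or LAMC and a number), plus 14 named partners: NID1, NID2, HSPG2, AGRN, FN1, SPARC, LOX, LOXL2, LOXL4, P4HA1, P4HA2, PLOD1, PLOD2 and SERPINH1. The rule found 70 genes, 44 collagens, 12 laminins and the 14 partners, of 60651 genes in the count table of the depletion dataset, and 69 of these among the 23792 genes of the overexpression table, where LAMB4 was not listed. The study measured RNA in 15 libraries labelled MDA-MB231, a human line from a triple-negative breast tumour, to study KIF20A, a kinesin motor of mitosis. The depletion dataset held 3 SG1 and 3 SG3 libraries, both of genotype KIF20A knockdown, and 3 CTRL libraries of genotype WT. The overexpression dataset held 3 KIF20A_OE libraries of genotype KIF20A overexpression and 3 EV libraries of genotype WT. All cells were grown in DMEM with serum. The labels say neither what SG1 and SG3 stand for nor how the lines were made, and they do not call the replicates independent cultures. A p-value therefore sets the difference between groups against no more than how far libraries of a group lie apart, a spread that may be technical.

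Basement membranes are thin sheets on which epithelial cells rest. Laminins, trimers of an alpha, a beta and a gamma chain, form a first network at the cell surface. Type IV collagen, a trimer of chains drawn from 6 genes, forms a crosslinked network beside it, and nidogens and the proteoglycans perlecan (HSPG2) and agrin (AGRN) connect the networks. Fibrillar collagens such as type I form the fibres of the surrounding stroma. Prolyl and lysyl hydroxylases (P4HA, PLOD) modify collagen chains in the endoplasmic reticulum, the chaperone SERPINH1 helps them fold, and lysyl oxidases (LOX, LOXL) crosslink them outside the cell. Epithelial cells make laminin-332 (with LAMA3 and LAMB3), laminin-511 (LAMA5, LAMB1, LAMC1) and type IV collagen, while fibroblasts make most type I collagen.

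The depletion libraries held 40895819 to 51018667 counts and the overexpression libraries 15971297 to 22182293 fragments. Levels are given in CPM, counts per 1000000 with TMM-scaled library totals, for the depletion dataset and in FPM, fragments per 1000000, for the overexpression dataset. The datasets were normalized separately and were tested separately. KIF20A had 123, 147 and 91.5 CPM in SG1, 86.3, 60.8 and 79.1 CPM in SG3, and 154, 171 and 160 CPM in CTRL. Every knockdown library was below every CTRL library, yet edgeR's quasi-likelihood test made no call (log2 fold change -1.10 ± 0.18 (SE) in SG3, Benjamini-Hochberg adjusted p = 0.330, and -0.42 ± 0.18 in SG1, adjusted p = 0.913). DESeq2 called the SG3 difference (adjusted p = 0.000186) and the range over all alternatives was 1.85e-07 to 1.00. KIF20A had 1348, 269 and 896 FPM in KIF20A_OE, against 101, 143 and 124 FPM in EV (limma log2 fold change 2.49 ± 0.53, adjusted p = 0.00415, and 3.17 without KIF20A_OE replicate 2).

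The KIF20A_OE libraries went against the line they are labelled as. MTAP, CDKN2A and CDKN2B, neighbouring genes known to be deleted in MDA-MB231 and chosen after their values were seen, were listed at 0 in all EV and all depletion libraries. MTAP had 22.7, 24.6 and 22.6 FPM, CDKN2A 276, 336 and 353 FPM, and CDKN2B 14.9, 13.6 and 12.2 FPM in the libraries labelled KIF20A_OE. Of the 6 markers of mesenchymal triple-negative lines, 5 fell and 1 rose in the libraries labelled KIF20A_OE. Their summed level was 1030 to 1390 FPM in these libraries, against 4536 to 5250 FPM in EV. The receptor kinase AXL was at 0.750 to 0.811 FPM in the libraries labelled KIF20A_OE, against 811 to 1107 FPM in EV. Principal component 1 of the overexpression dataset held 91.6% of the variance and separated the groups. Of the endothelial markers, TIE1 was at 64.3 to 81.0 FPM in EV, against at most 0.0902 FPM in the libraries labelled KIF20A_OE, and the depletion libraries had at most 0.575 CPM. Of the 9 markers on that list 4 were tested, 3 of them called lower and 0 higher. PECAM1 did not separate the groups, at 0.321 to 35.8 FPM in the libraries labelled KIF20A_OE and 6.43 to 11.8 FPM in EV. All differences between KIF20A_OE and EV below are therefore between libraries so labelled, and the part that KIF20A and the part that the source of the cells has in them cannot be told apart.

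The promoters of the genes on which the results turn are shown first, because type IV collagen genes lie in head-to-head pairs and because LAMB3, a chain of laminin-332, gave the largest fall on the log2(FPM + 1) scale. The table of RefSeq promoters (GRCh38.p14, 250 bases before to 50 after a gene's start) held 53 of the 70 genes. COL4A1 (chr13:110307108-110307407, minus strand) and COL4A2 (chr13:110307034-110307333, plus strand) share 226 bases of these windows, with starts 127 bp apart. COL4A5 (chrX:108439588-108439887, plus strand) and COL4A6 (chrX:108439409-108439708, minus strand, the one of its 2 listed starts that faces COL4A5) share 121 bases, with starts 380 bp apart. LAMA3 (chr18:23872770-23873069, plus strand) and LAMB3 (chr1:209651325-209651624, minus strand, 1 of 3 listed starts) encode the alpha and beta chains of laminin-332. The LAMB3 start shown was picked because its window holds TGACTCA, the letters marked below. LAMA3 has 1 listed start, at 23873020, which lies inside the gene, whose annotated extent begins at 23689443. Capitals mark CCAAT, the CCAAT box, on either strand in the collagen promoters, and TGACTCA, the letters of the AP-1 element, on either strand in the laminin promoters.
COL4A1: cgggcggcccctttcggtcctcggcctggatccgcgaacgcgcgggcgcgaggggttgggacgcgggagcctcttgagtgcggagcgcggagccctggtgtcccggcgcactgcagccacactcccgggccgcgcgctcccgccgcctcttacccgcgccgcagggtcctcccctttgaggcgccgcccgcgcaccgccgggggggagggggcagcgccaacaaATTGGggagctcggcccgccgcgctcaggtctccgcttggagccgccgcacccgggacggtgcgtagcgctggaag
COL4A2: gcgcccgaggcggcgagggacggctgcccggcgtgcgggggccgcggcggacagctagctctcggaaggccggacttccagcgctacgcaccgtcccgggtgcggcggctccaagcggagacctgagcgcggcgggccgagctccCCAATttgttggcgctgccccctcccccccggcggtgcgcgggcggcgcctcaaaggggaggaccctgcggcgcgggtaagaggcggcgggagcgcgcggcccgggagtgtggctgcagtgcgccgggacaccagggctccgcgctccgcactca
COL4A5: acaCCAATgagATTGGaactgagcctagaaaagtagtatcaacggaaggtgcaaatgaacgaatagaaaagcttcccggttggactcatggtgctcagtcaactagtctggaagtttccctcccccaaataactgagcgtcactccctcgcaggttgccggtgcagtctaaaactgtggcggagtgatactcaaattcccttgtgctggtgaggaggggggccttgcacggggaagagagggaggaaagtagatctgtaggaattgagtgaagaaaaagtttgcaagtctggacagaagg
COL4A6: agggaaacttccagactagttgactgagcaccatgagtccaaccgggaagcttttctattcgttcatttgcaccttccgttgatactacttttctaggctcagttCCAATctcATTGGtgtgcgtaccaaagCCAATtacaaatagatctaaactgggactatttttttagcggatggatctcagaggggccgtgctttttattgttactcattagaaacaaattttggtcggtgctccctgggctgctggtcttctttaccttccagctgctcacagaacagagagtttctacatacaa
LAMA3: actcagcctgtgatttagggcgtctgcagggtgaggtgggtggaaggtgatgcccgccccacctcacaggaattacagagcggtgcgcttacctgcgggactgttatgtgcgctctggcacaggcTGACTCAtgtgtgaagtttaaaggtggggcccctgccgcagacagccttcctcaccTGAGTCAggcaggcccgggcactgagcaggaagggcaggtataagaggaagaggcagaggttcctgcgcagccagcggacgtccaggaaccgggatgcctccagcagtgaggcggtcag
LAMB3: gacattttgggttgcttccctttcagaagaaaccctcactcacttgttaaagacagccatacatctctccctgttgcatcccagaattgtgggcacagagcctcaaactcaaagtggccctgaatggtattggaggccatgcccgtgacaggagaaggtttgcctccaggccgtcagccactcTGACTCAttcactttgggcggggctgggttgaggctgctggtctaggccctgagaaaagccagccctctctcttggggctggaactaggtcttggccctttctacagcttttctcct
Within a sequence the marked motifs do not overlap each other. The COL4A1 and COL4A2 sites are the same bases read on opposite strands. Both COL4A5 sites likewise recur in COL4A6, whose remaining site lies outside the shared bases. CCAAT is in 34.6% of all 35116 promoters in the table, so its presence is common, and these 4 promoters do not hold it independently. TGACTCA is in 4.95% of all promoters and in a promoter of 6.05% of all 27305 genes, and 2 of the 53 matched genes, LAMA3 and LAMB3, held it, which is no more than that share. A match of letters is no evidence of binding.

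In CTRL libraries laminin chains, agrin and collagen-modifying enzymes were the most abundant of these RNAs, and type I collagen was low. Levels per kb of exon, all annotated isoforms merged, compare genes only roughly, as a rarely used exon lowers a gene's value. On this scale LAMB3 was highest at 133 ± 31.6 CPM per kb (SD, n = 3). AGRN followed at 103 ± 19.2 and LOXL2 at 98.0 ± 28.7 CPM per kb, and neighbours among these 3 lay within 1 SD of each other. SERPINH1 (60.5 ± 3.45), LAMC1 (52.9 ± 3.39), COL5A1 (48.7 ± 16.2), PLOD1 (46.5 ± 8.45), P4HA1 (43.2 ± 9.26), COL6A1 (41.6 ± 14.7) and LAMB2 (40.2 ± 9.14 CPM per kb) made up the rest of the first 10. SERPINH1 differed from both of its neighbours in this order by more than its SD, and from LAMC1 on each lay within 1 SD of the next. EV libraries shared 6 of these 10 (LAMB3, LOXL2, PLOD1, P4HA1, COL6A1 and LAMB2), led by LAMB3 at 247 ± 10.5 and PLOD1 at 110 ± 19.2 FPM per kb. COL1A1 and COL1A2, the type I chains, stood at 1.13 ± 0.209 and 2.50 ± 0.0923 CPM per kb in CTRL. Of the 70 genes, 21 had at least 100 CPM in every CTRL library, 29 were under 1 CPM in every CTRL library, and 9 had no count there. COL2A1, the cartilage collagen, and NID1 were among the silent ones, with no count and at most 0.0202 CPM in the CTRL libraries. The RNA of bulk libraries cannot separate fewer cells that make a transcript from less of it per cell.

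For 3 of the 6 type IV collagen genes, COL4A1, COL4A2 and COL4A4, every SG1 library was below every CTRL library, though none passed the test across all genes. Of the 49 matrix genes that passed edgeR's expression filter, 0 were called against CTRL at an adjusted p under 0.05, as were 0.0% of all 16786 genes tested. DESeq2 called 0 of them too. At an unadjusted p under 0.05 there were 7 matrix genes, 14.3% of the 49, against 4.59% of all genes, and all 7 were collagens with lower values (COL16A1, COL9A2, COL6A3, COL7A1, COL4A1, COL4A2, COL4A4). The libraries did not overlap for 5 matrix genes, 10.2%, lower in SG1, against 7.21% of all genes, and for 0 higher, against 4.96% of all genes.

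COL4A2 had 152, 200 and 146 CPM in SG1, against 332.3, 313 and 208 CPM in CTRL. All 3 SG1 libraries were below all 3 CTRL libraries, CTRL replicate 3 being the nearest (log2 fold change -0.77 ± 0.24, edgeR adjusted p = 0.913). Its partner COL4A1, with which it forms the common alpha1-alpha1-alpha2 trimer, had 51.8, 70.7 and 57.9 CPM in SG1, against 93.1, 94.0 and 71.2 CPM in CTRL. The groups were apart by less than 1 CPM at their nearest (log2 fold change -0.52 ± 0.16, edgeR adjusted p = 0.913). COL4A4, a chain of the network of glomerular membranes, had 3.16, 3.48 and 2.64 CPM in SG1, against 6.29, 3.95 and 5.26 CPM in CTRL (log2 fold change -0.74 ± 0.25, adjusted p = 0.913). The other 3 type IV genes overlapped between the groups. COL4A5, COL4A6 and COL4A3 had log2 fold changes of -0.13 ± 0.17, -0.16 ± 0.49 and -0.91 ± 0.68. All 6 fold changes of type IV genes were below 0, with a median of -0.63.

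Among all collagens, type IV included, the sign was mostly below 0, and it was mixed among their partners. Of the 26 collagens tested in SG1 against CTRL, 22 had a log2 fold change below 0, with a median of -0.38. Over all 49 matrix genes 31 were below 0 (63.3%, against 50.3% of all genes) and 18 above (36.7%, against 49.7%), with a median of -0.14, against -0.002 for all genes. COL7A1, the anchoring fibril collagen, had 77.5, 78.1 and 75.5 CPM in SG1, against 217, 97.2 and 62.2 CPM in CTRL. The SG1 libraries were close to each other and lay inside the wide CTRL range. COL6A3, the large chain of type VI collagen, had 31.8, 38.7 and 23.2 CPM in SG1, against 71.6, 70.8 and 23.8 CPM in CTRL. CTRL replicate 3 was as low as the SG1 libraries, and the other 2 CTRL libraries were above them. COL16A1, a fibril-associated collagen, had 5.61, 3.89 and 5.01 CPM in SG1, against 12.8, 9.49 and 4.62 CPM in CTRL, with the same overlap through CTRL replicate 3.

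Laminins and enzymes lay on both sides of 0 in SG1. Of 10 laminin chains tested, 4 had a log2 fold change below 0, with a median of 0.10. LAMB3 had 606, 571 and 609 CPM in SG1, against 652, 755 and 463 CPM in CTRL. LAMC1, the gamma chain of laminin-511, had 482, 503 and 432 CPM in SG1, against 454, 467 and 413 CPM in CTRL. Of the 8 enzymes and chaperone, 3 were below 0. LOX was at 87.0 ± 20.5 CPM in SG1 and 68.7 ± 13.1 CPM in CTRL (SD, n = 3 each, log2 fold change 0.34 ± 0.20), and P4HA1 at 171 ± 39.5 CPM in SG1 and 134 ± 28.6 CPM in CTRL (0.36 ± 0.20). FN1, fibronectin, overlapped widely, with 491, 576 and 314 CPM in SG1, against 409, 610 and 196 CPM in CTRL. Whether collagens and laminins differ in their response to SG1 was not tested.

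**Figure D1:**
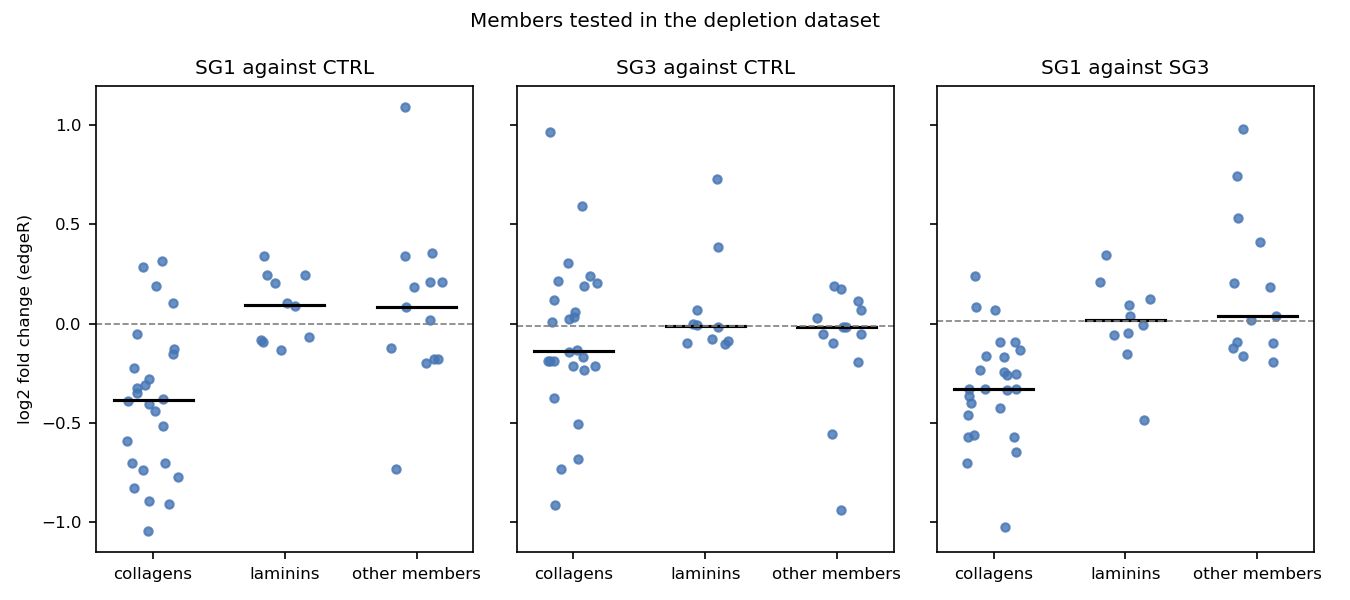
Log2 fold changes (y axis, edgeR) of the 49 matrix genes tested, split into collagens, laminins and other members, for SG1 against CTRL, SG3 against CTRL and SG1 against SG3. Each point is a gene, black bars are class medians and the dashed line is the median of all genes tested. In SG1 against CTRL 22 of 26 collagens lie below 0, while 4 of 10 laminins do.

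Other measures of the SG1 libraries stand beside these values, and no gene of these marker lists was called. Mitochondrially encoded mRNAs summed to 15341 to 33801 CPM in SG1, 9614 to 19597 CPM in SG3 and 9949 to 25102 CPM in CTRL, and 12 of these 13 genes had a log2 fold change above 0 in SG1 against CTRL (median 0.61). Of the 16 fibroblast markers 7 were tested, and 6 had a log2 fold change below 0, with a median of -0.41. Their sum was 308 to 502 CPM in SG1 and 444 to 473 CPM in CTRL, nearly all of it S100A4, and the defining marker DCN was at 0 in all 9 libraries. Luminal markers summed to 808 to 1139 CPM in SG1 and 1117 to 1305 CPM in CTRL, with all 6 that were tested below 0. The part of these in the collagen values was not tested.

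In SG3 libraries the matrix genes differed little from CTRL. Again 0 of 49 were called, as were 0.0% of all genes, by edgeR, and 0 by DESeq2. The median log2 fold change was -0.02, against -0.01 for all genes, and 20 of 49 were above 0 (40.8%, against 46.7% of all genes) and 29 below (59.2%, against 53.3%). At an unadjusted p under 0.05 there was 1 gene, COL6A3 (2.04%, against 1.19% of all genes), with 33.9, 36.6 and 29.6 CPM in SG3, against the CTRL values above. COL1A2, the second chain of type I collagen, was the only matrix gene whose libraries did not overlap (2.04% of the 49, against 2.38% of all genes lower), and 0 were higher without overlap, against 2.28% of all genes. It had 8.76, 23.9 and 19.5 CPM in SG3, against 28.5, 26.7 and 28.4 CPM in CTRL. The CTRL values lay close together and SG3 replicate 1 was far below its own group (log2 fold change -0.68 ± 0.46, edgeR adjusted p = 1.00). Type IV genes were split, 3 above and 3 below 0. COL4A1 had 67.0, 80.1 and 79.9 CPM and COL4A2 154, 295 and 286 CPM in SG3, where replicate 1 alone was as low as SG1.

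Set directly against each other, SG1 and SG3 differed by no call among 49 matrix genes, nor among all genes tested (0.0%), and DESeq2 called 0 matrix genes. Of the 49, 33 had a log2 fold change below 0 in SG1 against SG3 (67.3%, against 48.1% of all genes) and 16 above (32.7%, against 51.9%). All 6 type IV genes were below 0, with a median of -0.41, as were 23 of 26 collagens, with a median of -0.33. Matrix genes without overlap were 5 lower in SG1 (10.2%, against 4.55% of all genes) and 1 higher (2.04%, against 6.26%). COL4A5 had 14.8, 17.9 and 15.0 CPM in SG1, against 20.2, 22.5 and 18.8 CPM in SG3 (log2 fold change -0.37 ± 0.17, edgeR adjusted p = 0.861). COL16A1 (-0.70 ± 0.30) and COL7A1 (-0.57 ± 0.31, with 102, 112 and 129 CPM in SG3) were the other named genes on the lower side. LAMA3, the alpha chain of laminin-332, was the gene on the higher side, with 85.6, 107 and 95.6 CPM in SG1, against 68.7, 83.9 and 74.0 CPM in SG3 (0.35 ± 0.15, adjusted p = 0.861). At an unadjusted p under 0.05 there were 5 matrix genes, COL4A2, COL8A1, COL16A1, LAMA3 and LOX (10.2%, against 4.74% of all genes). The averaged knockdowns against CTRL gave 0 calls among 49 with edgeR and with DESeq2 (0.0% of all genes with edgeR). No matrix gene was then without overlap, against 0.536% of all genes higher and 0.441% lower, and 6 of 49 passed an unadjusted p under 0.05 (12.2%, against 1.76% of all genes). Of the 49, 30 were below 0 (61.2%, against 53.1% of all genes) and 19 above (38.8%, against 46.9%). SG1 and SG3 share the CTRL libraries, so their values against CTRL are not independent.

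**Figure D2:**
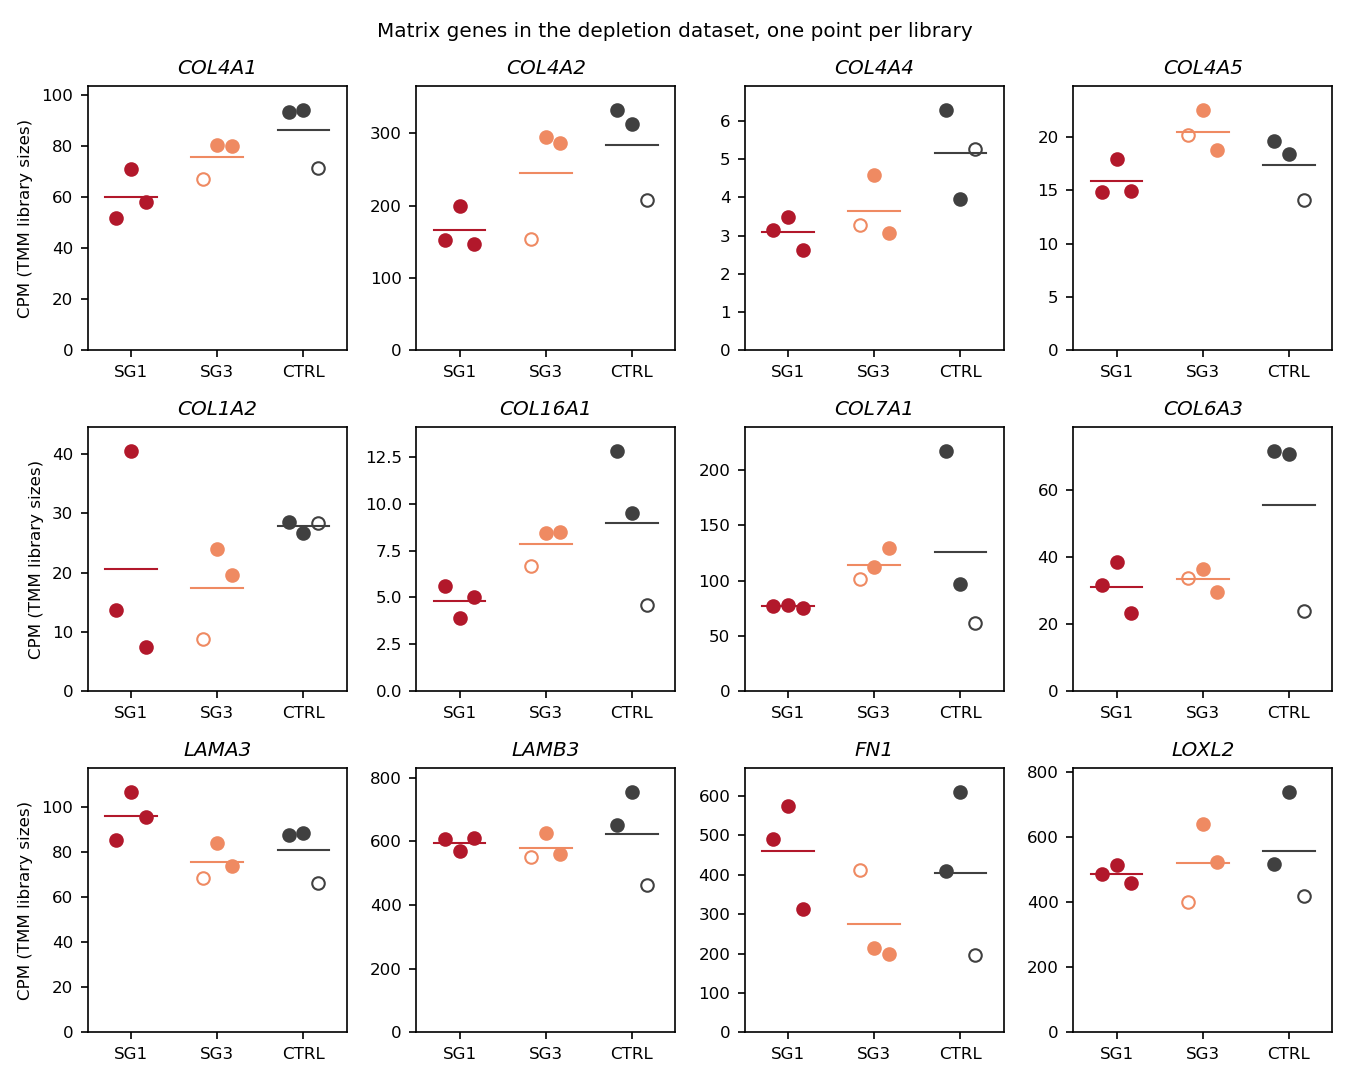
Levels of 12 matrix genes (y axis, CPM with TMM library sizes, from 0) in the SG1, SG3 and CTRL libraries. Each point is a library, bars are group means, and open points are SG3 replicate 1 and CTRL replicate 3. For COL4A2 the 3 SG1 libraries and SG3 replicate 1 lie at 146 to 200 CPM, below every CTRL library.

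One CTRL and 1 SG3 library bore on all of these comparisons. CTRL replicate 3 was the lowest CTRL library for 34 of the 49 matrix genes (69.4%), against 39.1% of all genes. SG3 replicate 1 was the lowest SG3 library for 29 of them (59.2%, against 39.8%), and both held for 23 (46.9%, against 22.5%). On principal component 1 of the depletion dataset CTRL replicate 3 had 24.7 and SG3 replicate 1 had 32.1, beside 16.6 to 22.0 in SG1, while the other CTRL and SG3 libraries were at -33.4 to -21.3. Their labels give no batch. Without these 2 libraries together, edgeR called 9 of 49 matrix genes lower in SG1 than in CTRL (18.4%, against 3.16% of all genes) and 0 higher (against 1.32%). All 9 were collagens, COL4A1, COL4A2, COL6A1, COL6A2, COL6A3, COL7A1, COL9A2, COL16A1 and COL18A1, with log2 fold changes of -1.22 for COL16A1 to -0.58 for COL6A2. COL4A2 then had a log2 fold change of -0.97 ± 0.12 (adjusted p = 0.00515, where the alternatives ranged from 0.000967 to 1.00). Against SG3 it called 6 matrix genes lower in SG1 (12.2%, against 6.0% of all genes), COL4A1, COL4A2, COL9A2, COL16A1, COL18A1 and SERPINH1, and FN1 higher (2.04%, against 2.93%). FN1 had 215 and 199 CPM in the SG3 libraries that remained, against 411 CPM in SG3 replicate 1 (log2 fold change 1.12 ± 0.23, adjusted p = 0.0194). SG3 against CTRL gave 0 calls in that fit. The 2 libraries were set aside with these values in view, so the calls describe the remaining 7 libraries. With all 9 libraries and no filter on low counts, edgeR called 3 of 64 matrix genes, COL4A2, COL6A3 and COL7A1, lower in SG1 than in CTRL (4.69%, against 0.209% of 31103 genes) and 1, FN1, higher in SG1 than in SG3 (1.56%, against 0.0739%). The shares of all genes there include many genes with very low counts. COL4A2 had nearly the same fold change as with the filter (-0.78) and a smaller SE (0.16), and the libraries of COL6A3 and COL7A1 overlapped between SG1 and CTRL.

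The libraries labelled KIF20A_OE and the EV libraries differed in most matrix genes, as in most genes. Of the 55 matrix genes tested, those with a mean of at least 1 FPM, limma on log2(FPM + 1) called 49 (89.1%, against 69.6% of all 15265 genes). At an unadjusted p under 0.05 the count was also 49, against 72.3% of all genes. It called 29 lower in the libraries labelled KIF20A_OE (52.7%, against 23.4% of all genes) and 20 higher (36.4%, against 46.2%). The groups did not overlap for 29 lower (against 25.2% of all genes) and 19 higher (34.5%, against 48.9%), and 32 of 55 were below 0 (58.2%, against 36.6%) and 23 above (41.8%, against 63.4%). The median log2 fold change was -0.84 over the matrix genes and 0.37 over all genes. Setting the 3 genes listed at 0 in 1 group to the bound of their fold could not move this median, as each stays on its side of it. With TMM factors the median of all genes was 0.05, that of the matrix genes -1.20, and the calls 31 lower and 18 higher, against 32.2% lower and 34.4% higher of all genes. Summed over the 69 listed genes, matrix RNA was 2410 to 2645 FPM in the libraries labelled KIF20A_OE, against 8495 to 12900 FPM in EV. The 49 called genes included genes that passed the filter only through the group where they were high. NID1, NID2, LAMA1, LAMC3, COL2A1, COL4A6, COL5A2, COL11A2, COL14A1, COL23A1, COL24A1, COL25A1 and COL26A1 averaged under 1 FPM in EV, so they could only rise. COL1A2, COL8A1 and COL17A1 averaged under 1 FPM in the libraries labelled KIF20A_OE, so they could only fall. The p-values of these genes add no support to their direction.

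**Figure D3:**
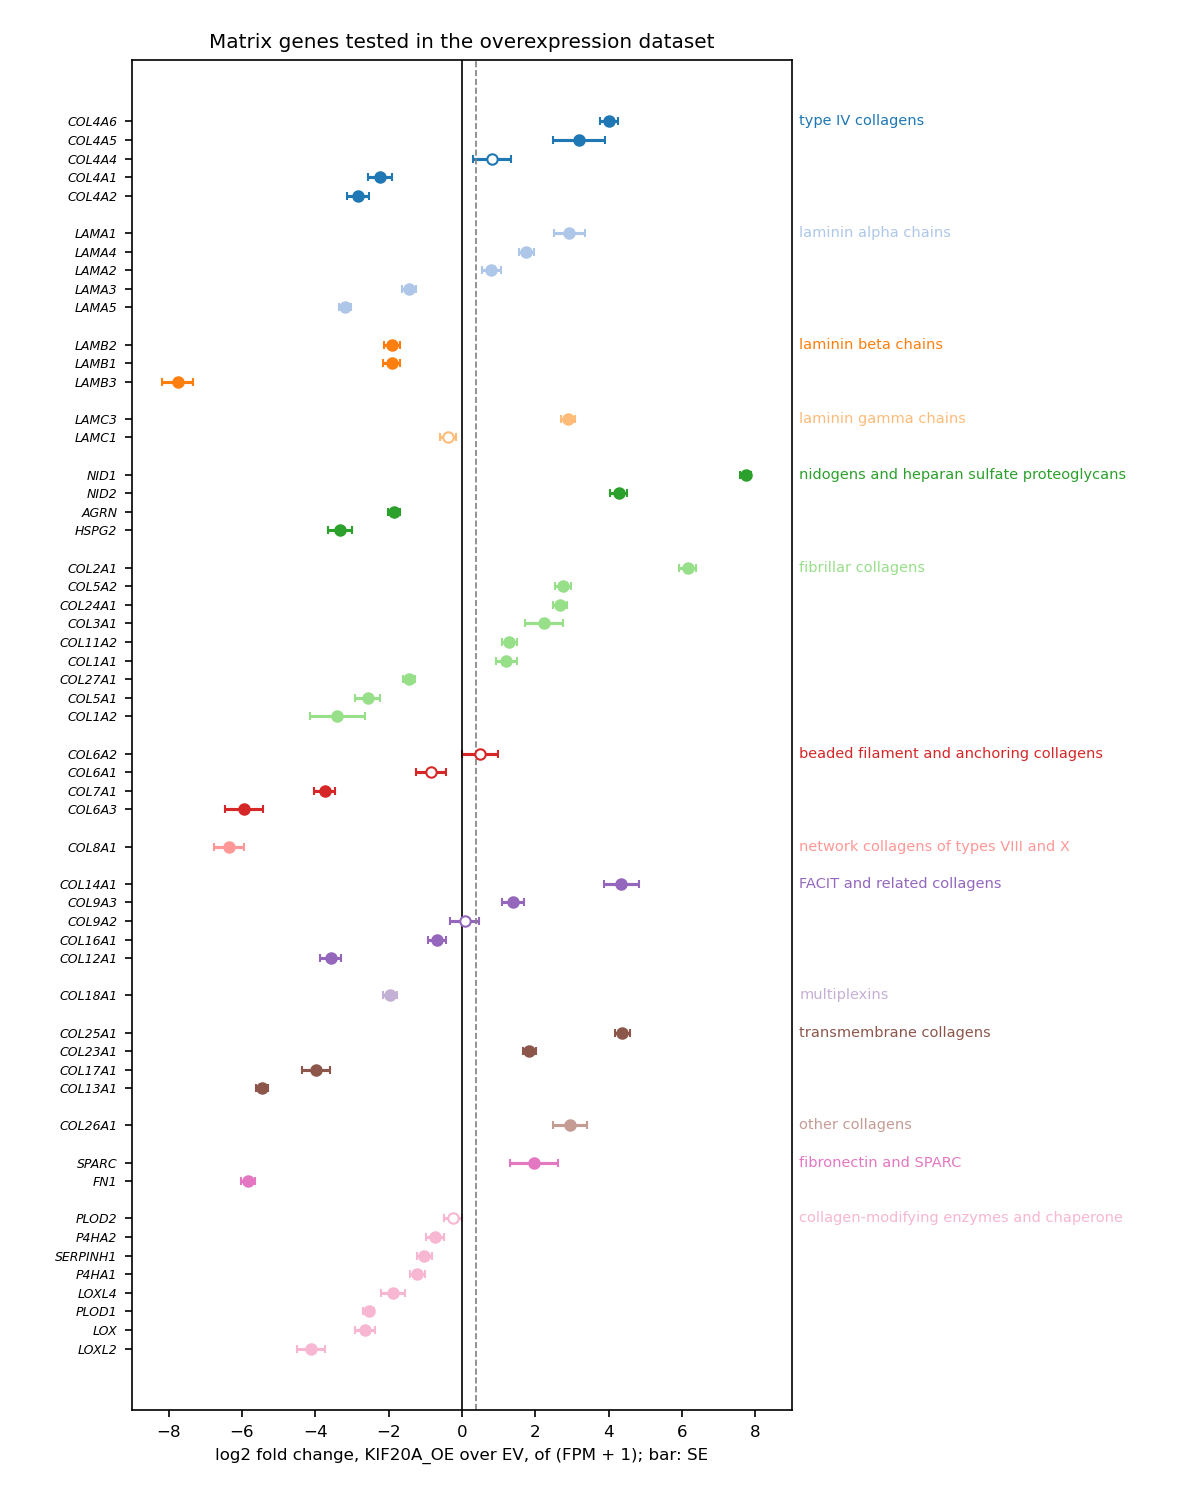
Log2 fold change of FPM + 1 (x axis, KIF20A_OE over EV, bars are SE) of 54 of the 55 matrix genes tested, grouped by role from top to bottom. Filled points have a limma adjusted p under 0.05, the dashed line is the median of all genes at 0.37. LAMB3 lies farthest left and NID1 farthest right, and all 8 enzymes and chaperone lie left of 0.

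RNA of LAMB3, the beta chain of laminin-332, was nearly absent from the libraries labelled KIF20A_OE. LAMB3 had 7.83, 1.53 and 5.94 FPM there, against 1209, 1155 and 1110 FPM in EV. This was the largest fall among the matrix genes on this scale (log2 fold change -7.75 ± 0.42, limma adjusted p = 3.26e-06), and from pooled fragments the level was 244-fold lower (95% interval of counting error 217 to 277). LAMA3 fell less, with 52.2, 43.2 and 39.8 FPM in the libraries labelled KIF20A_OE, against 161, 104 and 114 FPM in EV (-1.45 ± 0.19, adjusted p = 0.000169). Per kb of exon, LAMB3 therefore stood at 0.349 ± 0.206 times LAMA3 in the libraries labelled KIF20A_OE and 29.6 ± 5.68 times in EV (SD, n = 3 each). The same LAMB3 ratio was 19.6 ± 2.74 in SG1, 24.1 ± 0.908 in SG3 and 23.9 ± 2.47 in CTRL.

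The other laminins split by chain. LAMA5, the alpha chain of laminin-511, had 97.9, 85.3 and 99.2 FPM in the libraries labelled KIF20A_OE, against 1083, 780 and 777 FPM in EV (log2 fold change -3.20 ± 0.16). LAMB1 (-1.92 ± 0.23) and LAMB2 (-1.90 ± 0.21), the beta chains that pair with it, fell as well. LAMC1, the gamma chain they share, had 319, 187 and 238 FPM in the libraries labelled KIF20A_OE, against 370, 249 and 340 FPM in EV, and was not called (-0.38 ± 0.22, limma adjusted p = 0.152). It was called lower with TMM factors (-0.74, limma adjusted p = 0.0169), edgeR (adjusted p = 0.0215) and DESeq2 (adjusted p = 0.0067). Alpha chains typical of embryonic, vascular and muscle membranes were higher. LAMA1, found in early embryonic membranes, had 10.1, 13.5 and 9.74 FPM in the libraries labelled KIF20A_OE, against 0, 0.193 and 2.29 FPM in EV (2.93 ± 0.42, adjusted p = 0.000315). DESeq2 did not call LAMA1 (adjusted p = 0.0505), which passed the filter only through the libraries labelled KIF20A_OE and could only rise. LAMA4, a chain of vessel walls, had 43.9, 76.9 and 59.5 FPM in the libraries labelled KIF20A_OE, against 15.9, 17.5 and 16.6 FPM in EV (1.76 ± 0.20). LAMC3 had 8.08, 5.41 and 6.10 FPM in the libraries labelled KIF20A_OE and was listed at 0 in EV, at least 125-fold higher over a floor of 3 fragments for the EV group (80.3 to 137-fold with libraries left out singly, the lowest without EV replicate 1). LAMA2, the muscle chain, was called higher (0.80 ± 0.26, adjusted p = 0.0239) but not with TMM factors, edgeR or DESeq2.

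**Figure D4:**
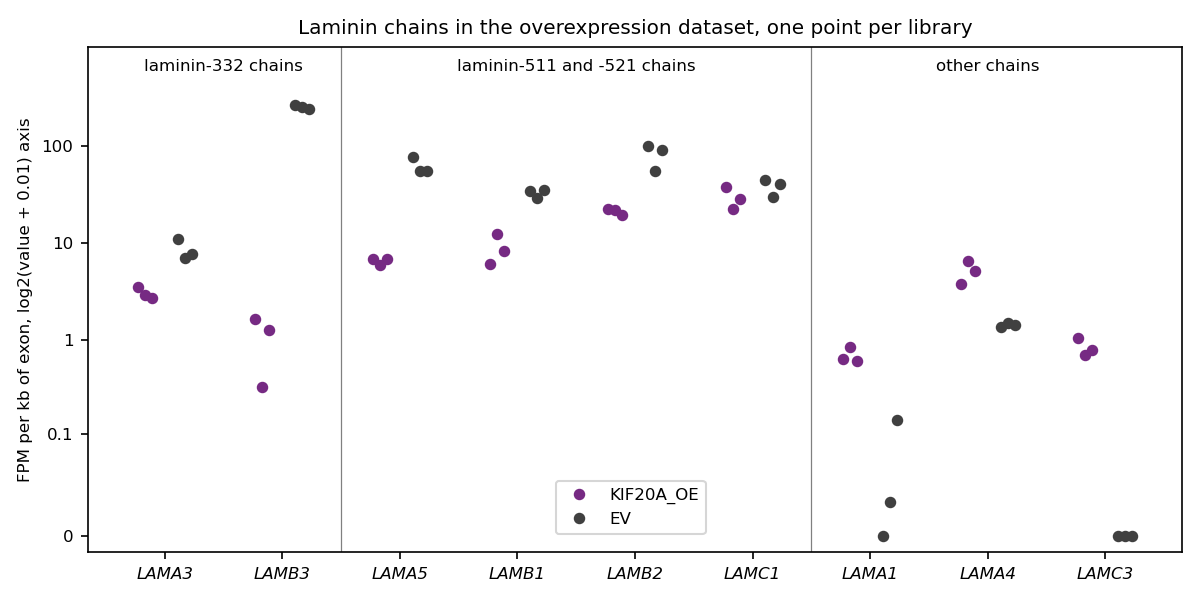
The 9 laminin chains plotted, in the libraries labelled KIF20A_OE and in EV, as FPM per kb of exon on a log2(value + 0.01) axis, 1 point per library, grouped by the trimers they enter. LAMB3 is far above LAMA3 in EV and below it in KIF20A_OE, and LAMC1 is the chain whose groups overlap.

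Nidogens were higher and the heparan sulfate proteoglycans lower. NID1 and NID2 averaged under 1 FPM in EV and passed the filter only through the other group, so they could only rise. NID1, which binds laminin and type IV collagen to each other, had 233, 202 and 221 FPM in the libraries labelled KIF20A_OE, against 0.0952, 0 and 0 FPM in EV (log2 fold change 7.73 ± 0.16, limma adjusted p = 1.68e-08). Pooled, these were 12326 fragments in the libraries labelled KIF20A_OE and 2 in EV, a ratio of 6366 (95% interval of counting error 1762 to 52571). Both EV fragments were in replicate 1, without which NID1 was at least 2725-fold higher, and the ratio was 4122 without EV replicate 2. NID2 had 19.0, 31.7 and 30.1 FPM in the libraries labelled KIF20A_OE, against 0.333, 0.435 and 0.470 FPM in EV (4.27 ± 0.23, adjusted p = 1.13e-06). HSPG2, perlecan, had 11.4, 9.92 and 18.0 FPM in the libraries labelled KIF20A_OE, against 183, 82.5 and 169 FPM in EV (-3.33 ± 0.33), and AGRN had 124, 107 and 154 FPM there, against 525, 407 and 452 FPM in EV (-1.85 ± 0.16).

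The RNAs of type IV collagen chains differed in opposite directions. COL4A1 had 19.4, 36.5 and 27.7 FPM in the libraries labelled KIF20A_OE, against 187, 80.3 and 149 FPM in EV (log2 fold change -2.23 ± 0.33, limma adjusted p = 0.000446). COL4A2 had 31.2, 73.0 and 42.7 FPM in the libraries labelled KIF20A_OE, against 443, 269 and 319 FPM in EV (-2.84 ± 0.31, adjusted p = 7.42e-05). The head-to-head pair on chromosome X was higher. COL4A5, a chain of kidney, lung and skin membranes, had 39.3, 35.7 and 40.7 FPM in the libraries labelled KIF20A_OE, against 0.714, 2.13 and 14.2 FPM in EV, where the libraries differed widely (3.19 ± 0.71, adjusted p = 0.00507). The fold change was 4.09 without EV replicate 3 and 2.52 without EV replicate 1. COL4A6 had 14.2, 21.1 and 18.0 FPM in the libraries labelled KIF20A_OE, against 0, 0 and 0.529 FPM in EV (4.01 ± 0.25, adjusted p = 2.27e-06). Both genes of each pair that shares a promoter window, printed above, were on the same side. COL4A6 passed the filter only through the libraries labelled KIF20A_OE, so it could only rise. Any part of the shared windows in these directions was not tested. COL4A4, of the third pair, overlapped between the groups (0.83 ± 0.52, adjusted p = 0.188), and COL4A3 was under the filter with at most 2.46 FPM in any library. Per kb of exon COL4A2 was 1.31 ± 0.190 times COL4A1 in the libraries labelled KIF20A_OE and 2.001 ± 0.489 times in EV, and 2.11 ± 0.162 times in SG1, 2.43 ± 0.592 in SG3 and 2.50 ± 0.254 in CTRL.

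**Figure D5:**
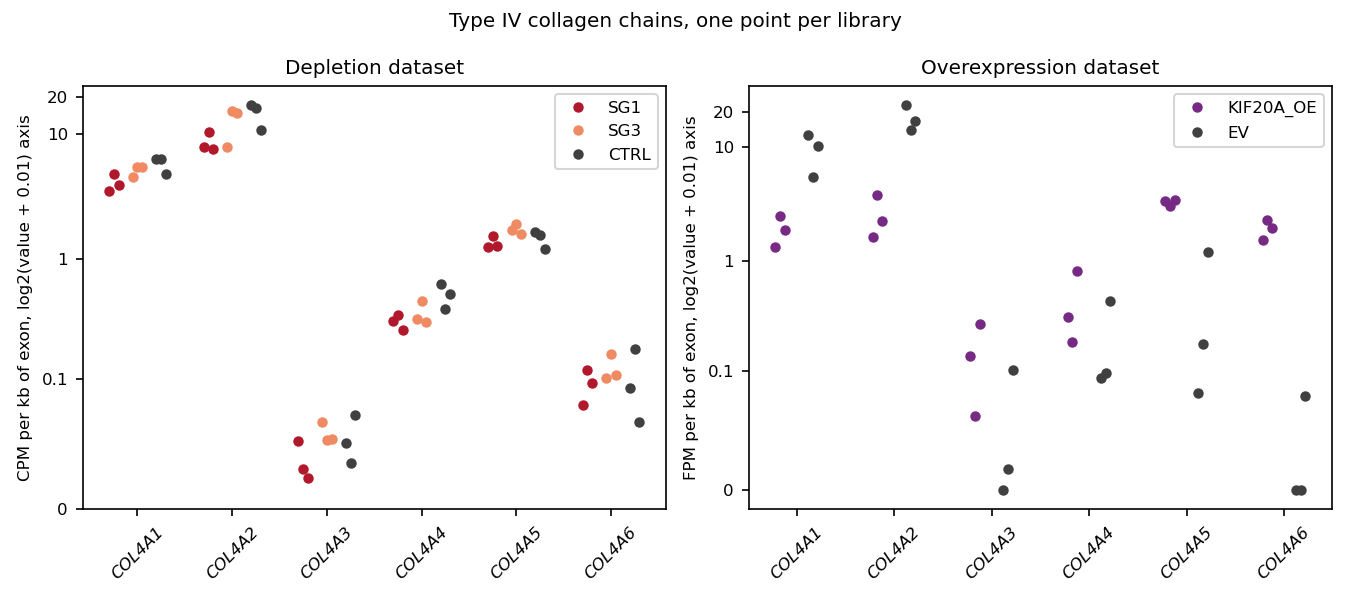
The 6 type IV collagen genes per kb of exon on a log2(value + 0.01) axis, as CPM in SG1, SG3 and CTRL (left) and as FPM in the libraries labelled KIF20A_OE and in EV (right), 1 point per library. COL4A1 and COL4A2 are lower and COL4A5 and COL4A6 higher in KIF20A_OE than in EV. The panels were normalized separately.

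Fibrillar collagens differed chain by chain, with 6 called higher and 3 lower of the 9 tested, against 46.2% and 23.4% of all genes. COL2A1, COL5A2, COL11A2 and COL24A1 averaged under 1 FPM in EV and could only rise, while COL1A2 could only fall. COL2A1 had 52.9, 93.1 and 76.6 FPM in the libraries labelled KIF20A_OE, against 0, 0.0967 and 0 FPM in EV (log2 fold change 6.15 ± 0.23, limma adjusted p = 1.67e-07). The type I chains came apart. COL1A1 had 74.6, 82.2 and 74.5 FPM in the libraries labelled KIF20A_OE, against 33.1, 20.4 and 51.7 FPM in EV (1.21 ± 0.29, adjusted p = 0.00527), while COL1A2 was listed at 0 in all 3 of them, against 10.1, 2.13 and 32.6 FPM in EV. COL1A2 was at least 262-fold lower, over a floor of 3 fragments for the KIF20A_OE group. The bound was 117-fold without EV replicate 3, which held most of the fragments, 160-fold without KIF20A_OE replicate 2 and up to 382-fold with other libraries left out. The type V chains came apart too. COL5A1 had 53.2, 36.2 and 63.2 FPM in the libraries labelled KIF20A_OE, against 471, 185 and 306 FPM in EV (-2.57 ± 0.34), and COL5A2 had 13.6, 13.5 and 8.78 FPM there, against 0.714, 0.918 and 1.00 FPM in EV (2.77 ± 0.22). COL3A1 (2.23 ± 0.52), COL11A2 (1.29 ± 0.20) and COL24A1 (2.67 ± 0.19) rose and COL27A1 (-1.46 ± 0.16) fell.

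Among the other collagens, COL7A1, COL17A1, COL8A1, COL13A1 and COL6A3 fell most. COL7A1, which anchors epidermis to dermis, had 15.3, 16.4 and 12.0 FPM in the libraries labelled KIF20A_OE, against 172, 151 and 342 FPM in EV (log2 fold change -3.75 ± 0.29), and COL17A1, the hemidesmosome collagen, averaged 0.863 ± 0.575 FPM there and 29.9 ± 15.6 FPM in EV (SD, n = 3 each, -3.98 ± 0.38). COL8A1 had 0.376, 0.947 and 0.375 FPM in the libraries labelled KIF20A_OE, against 248, 74.6 and 106 FPM in EV (-6.35 ± 0.40, limma adjusted p = 3.06e-06). COL13A1 averaged 1.11 ± 0.203 FPM in the libraries labelled KIF20A_OE and 91.5 ± 8.02 FPM in EV (-5.46 ± 0.17). Of the type VI chains COL6A3 had 4.01, 11.5 and 1.82 FPM in the libraries labelled KIF20A_OE, against 363, 248 and 462 FPM in EV (-5.95 ± 0.51), while COL6A1 (-0.84 ± 0.42, adjusted p = 0.108) and COL6A2 (0.49 ± 0.49, adjusted p = 0.389) were not called. COL6A1 was called lower with TMM factors (-1.20, limma adjusted p = 0.0375), edgeR (adjusted p = 0.0143) and DESeq2 (adjusted p = 0.000691). COL12A1 (-3.59 ± 0.28), COL18A1 (-1.96 ± 0.20) and COL16A1 (-0.67 ± 0.24) fell, the last with a limma adjusted p of 0.0354 that was 0.0577 to 0.121 without EV replicate 1, EV replicate 3, KIF20A_OE replicate 2 or KIF20A_OE replicate 3.

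Some collagens were near 0 in EV and present in the libraries labelled KIF20A_OE. A gene near 0 in EV passed the filter only through its values in the other group, so a rise was its only possible outcome. COL25A1, a transmembrane collagen of neurons, had 19.5, 25.2 and 18.5 FPM in the libraries labelled KIF20A_OE, against 0, 0 and 0.176 FPM in EV (log2 fold change 4.37 ± 0.20, limma adjusted p = 4.46e-07). COL14A1, a fibril-associated collagen, had 27.1, 8.34 and 38.1 FPM in the libraries labelled KIF20A_OE, against 0.0952, 0 and 0.118 FPM in EV (4.34 ± 0.47, and 4.95 without KIF20A_OE replicate 2). COL26A1 had 2.69, 15.3 and 6.58 FPM in the libraries labelled KIF20A_OE and was listed at 0 in EV, at least 174-fold higher over the same floor. That bound was 93.7-fold without KIF20A_OE replicate 2 and 112 to 124-fold with any 1 EV library left out. COL23A1 (1.84 ± 0.18) and COL9A3 (1.39 ± 0.31, at 1.30 ± 0.278 FPM in EV) rose too. COL9A2 had 8.52, 7.89 and 7.76 FPM in the libraries labelled KIF20A_OE, inside the EV range of 3.53 to 14.6 FPM, and its fold change turned sign with the scaling (0.07 against -0.25 with TMM factors). The 14 collagens with a mean under 1 FPM, COL4A3 among them, were not tested.

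Fibronectin and the collagen-modifying enzymes fell. FN1, which links collagens to integrins, had 28.6, 24.9 and 28.6 FPM in the libraries labelled KIF20A_OE, against 2010, 1204 and 1775 FPM in EV (log2 fold change -5.84 ± 0.19, limma adjusted p = 8.34e-08), a level 61.0-fold lower from pooled fragments. SPARC, a collagen-binding protein, had 68.0, 74.6 and 27.6 FPM in the libraries labelled KIF20A_OE, against 8.24, 6.28 and 36.9 FPM in EV. Its groups overlapped, and the call (1.96 ± 0.65, adjusted p = 0.0293) was lost with TMM factors, edgeR and DESeq2 (adjusted p of 0.0567, 0.0946 and 0.142), while without EV replicate 3 the fold change was 2.69. Of the 8 enzymes and chaperone, 7 were called lower and 0 higher. Of all genes 23.4% were called lower and 46.2% higher (32.2% and 34.4% with TMM factors). LOXL2 had 23.6, 19.1 and 18.1 FPM in the libraries labelled KIF20A_OE, against 657, 372 and 203 FPM in EV (-4.12 ± 0.38, adjusted p = 4.76e-05). LOX (-2.65 ± 0.28), PLOD1 (-2.55 ± 0.16), LOXL4 (-1.89 ± 0.33), P4HA1 (-1.22 ± 0.20), SERPINH1 (-1.03 ± 0.20) and P4HA2 (-0.73 ± 0.25) fell by less. The call of P4HA2 (limma adjusted p = 0.0286) was lost without EV replicate 1, KIF20A_OE replicate 2 or KIF20A_OE replicate 3, at 0.0659 to 0.0948. PLOD2, the telopeptide lysyl hydroxylase, had 70.6, 40.9 and 44.5 FPM in the libraries labelled KIF20A_OE, against 79.2, 60.4 and 45.6 FPM in EV, and was not called (-0.25 ± 0.25, adjusted p = 0.402). LOXL2 shares exon sequence with ENTPD4 on the same strand, and LAMA5, HSPG2, LAMB1 and NID2 with a gene on the other strand, so reads of such pairs may not be told apart.

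Called genes of 4 related lists are given beside the shares of all genes, 23.4% lower and 46.2% higher. Of 19 collagen and laminin receptors tested, 14 fell (73.7%) and 2 rose (10.5%) in the libraries labelled KIF20A_OE, and with TMM factors 16 fell and 1 rose, against 32.2% and 34.4% of all genes. ITGA3, ITGA6 and ITGB4, integrin chains that bind laminin-332, averaged 16.7 ± 0.815, 29.3 ± 5.11 and 6.53 ± 0.346 FPM there, and 1963 ± 214, 951 ± 117 and 562 ± 117 FPM in EV (SD, n = 3 each). The muscle integrin ITGA7 (log2 fold change 4.10) and the collagen receptor DDR2 (0.71) rose. Of 31 other genes for processing, secretion and crosslinking 12 rose (38.7%) and 10 fell (32.3%), and with TMM factors 11 rose and 16 fell. FKBP10, a collagen chaperone, averaged 226 ± 11.9 FPM in the libraries labelled KIF20A_OE and 1.30 ± 1.67 FPM in EV, while PXDN, peroxidasin, which forms the sulfilimine crosslinks of type IV collagen, averaged 33.5 ± 12.9 FPM there and 895 ± 183 FPM in EV. Of 23 other matrix genes tested 8 rose (34.8%) and 13 fell (56.5%), with VCAN and FBN2 among those that rose and TGFBI and THBS1 among those that fell. Of 13 other basement membrane genes tested 6 rose (46.2%) and 5 fell (38.5%), with 6 each way with TMM factors. All limma adjusted p-values of the genes named here were under 0.05. In the depletion dataset no gene of these lists was called in any comparison. Fibroblast markers summed to 57.7 to 63.4 FPM in the libraries labelled KIF20A_OE and 283 to 474 FPM in EV. Of the 7 tested, 4 were called higher and 3 lower. S100A4 alone had 1.58 to 3.11 FPM in the libraries labelled KIF20A_OE and 269 to 447 FPM in EV, so the lower sum rests on it. Luminal markers summed to 450 to 551 FPM in the libraries labelled KIF20A_OE and 1038 to 1230 FPM in EV, mostly KRT8 and KRT18. Of the 8 tested, 2 were called higher and 4 lower. The part of both lists in the matrix values was not tested.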

How the data were processed

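RNA-seq of libraries labelled MDA-MB231 was analysed. For the depletion dataset the authors deposited gene-level counts, not normalized. Per the labels the overexpression dataset holds FPKM, but each deposited column sums to 1000000 and holds whole multiples of 1 step, so the authors' values are fragments per 1000000 (FPM, the CPM of fragments) with no length in them. Whole fragments were recovered for 100% of values, within 0.001. The design had assumed FPKM, and its log2 test was kept. The submitters' processing notes name the build hg38 and, without their roles, limma 3.50.3, Subread 1.6.3, featureCounts, STAR 2.7.3a and Trim Galore 0.6.4. Annotation, strand setting and filters are unstated there. Exons of 27 of the 70 genes overlap another gene in GENCODE 29, which supplied exon lengths for levels per kb (exons of all isoforms merged, so that a rarely used exon lowers a gene's value), so their values are uncertain to that extent. By gene ID, version ignored, 96.3% of the count table and 97.3% of the FPM table matched it.

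Counts were tested in R 4.3.3 with edgeR 4.0.16, quasi-likelihood (TMM scaling, default expression filter, 9 libraries in 1 fit), and log2(FPM + 1) with limma 3.58.1 (trend, robust, mean of at least 1 FPM). P-values were adjusted by Benjamini-Hochberg over all genes tested, with a threshold of 0.05. Fold changes on the log2(FPM + 1) scale understate low genes. Alternatives were DESeq2 1.42.0, limma-voom, other scalings, filters and pseudocounts, halved counts, a replicate block, and libraries left out. The fits were checked on simulated data. Of depletion counts between 10 and 50, 62.9 to 68.0% per library were even numbers, for which no cause was tested. A count of 0 allows up to 3 counts. Ratios of pooled fragments have 95% exact intervals from scipy 1.17.1, which, like the floors, cover counting error only. Replicates of a group differed beyond sampling noise and were all kept.

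The genes and lists were chosen with earlier results of these data known. Named were KIF20A, every called gene, in each comparison the 3 genes with the largest change in each direction among those without overlap and with a mean of at least 1, the 10 highest per kb in CTRL and EV, the chains of types I, IV and VI, laminin-332 and laminin-511, and the enzymes. The values of 1 gene are not reported here, though counts over the set include it. Other genes named in the text were chosen after their values were seen. Of the lists, endothelial markers summed to 1.39 to 36.9 FPM in KIF20A_OE libraries and 82.7 to 113 FPM in EV, and leukocyte markers to 4.01 to 4.26 FPM in KIF20A_OE libraries and 5.94 to 10.2 FPM in EV.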

Additional observations from a re-analysis of the deposited data

How the results depend on the processing

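For matrix genes in the depletion dataset, the count of 0 calls held in all 4 comparisons with DESeq2, limma-voom, other scalings, halved counts, the replicate block and each library left out singly. Without a low-count filter the calls were 3 in SG1 against CTRL, 1 in SG1 against SG3 and 1 in the mean contrast, and over all genes 91 in SG1 against CTRL, 8 in SG3 against CTRL, 77 in SG1 against SG3 and 20 in the mean contrast. Without SG3 replicate 1 and CTRL replicate 3 together they were 9 in SG1 against CTRL and 7 in SG1 against SG3, of 765 and 1528 genes in all. DESeq2 called 3, 4, 5 and 5 genes in these comparisons, in that order. Leaving out libraries singly gave 0 to 1 gene in SG1 against CTRL, 0 to 5 in SG1 against SG3 and 0 to 2 in the mean contrast. Without SG3 replicate 1 the count was 5 in SG1 against SG3, and without SG1 replicate 2 it was 1 in SG1 against CTRL and 2 in the mean contrast. The median of the matrix genes in SG1 against CTRL ranged from -0.32 (without CTRL replicate 3) to -0.059 (without CTRL replicate 2). Of 12 single-gene results there, none of them called, 205 values stayed uncalled and 10, of COL4A1, COL4A2, COL16A1 and KIF20A, gained a call. The cause of these differences was not tested.

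For KIF20A_OE against EV the matrix calls stayed at 46 to 51 with single libraries left out. The median was -1.33 with DESeq2, -1.33 with edgeR, -1.20 with TMM factors, -1.65 at a mean of at least 5 FPM, -0.25 without a filter on low values, and -1.02 to -0.54 with single libraries left out, the lowest without EV replicate 2 and the highest without EV replicate 1. Values of 50 genes called there kept their call in 671 cases and lost it in 21, and no called value turned sign, while uncalled COL9A2 did with TMM factors, edgeR and DESeq2 and uncalled COL6A2 with edgeR and DESeq2. The lost calls were of SPARC, COL16A1, LAMA2, P4HA2 and LAMA1, and uncalled COL6A1 and LAMC1 gained a call with TMM factors, edgeR and DESeq2. The fit to the libraries compared alone was not run for the mean contrast, which uses all 9.

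The labels do not say that replicate numbers pair the samples. Correlations of deviations between same-numbered libraries were -0.12 to 0.18 in the depletion dataset, against -0.16 to 0.18 between differently numbered ones. In the overexpression dataset they were 0.014 to 0.058, against -0.050 to 0.0093. With 3 libraries a group these values cannot exclude pairing. With a replicate block 0 matrix genes were called in the depletion comparisons and 51 in KIF20A_OE against EV, where SPARC was not called (adjusted p = 0.0502, limma). With 3 libraries a group, genes under about 1 CPM or FPM carry large errors. Depth limits statements on genes at 0 to the floors given.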

Other observations

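Of the 70 genes, 20 had at least 100 CPM in every SG1 library, 23 in every SG3 library and 21 in every CTRL library, while of the 69 listed genes 5 had at least 100 FPM in every library labelled KIF20A_OE and 20 in every EV library. Genes under 1 FPM in every library were 13 of 69 in the libraries labelled KIF20A_OE and 22 in EV. Among the 10 highest genes per kb, 4 were shared by the libraries labelled KIF20A_OE and EV (COL6A1, LAMB2, P4HA1 and PLOD1).

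The ratio of type I chains varied within groups. Per kb, COL1A1 stood at 0.915, 0.288 and 2.24 times COL1A2 in SG1, 1.36, 0.641 and 0.577 times in SG3, and 0.436, 0.564 and 0.367 times in CTRL. In EV the ratio was 3.71, 10.9 and 1.80. COL6A3 stood at 0.0119, 0.0470 and 0.00435 times COL6A2 per kb in the libraries labelled KIF20A_OE and 1.78, 2.11 and 0.918 times in EV, and at 0.134, 0.110 and 0.0699 times in CTRL.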
